A study of Mus musculus with 16 samples.

Results

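The mouse p200 genes encode AIM2-like proteins that bind DNA, and 6 of them were examined here in bone marrow-derived DCs (BMDCs): *Aim2*, *Ifi203*, *Ifi204*, *Ifi205*, *Mnda* and *Pyhin1*. They were chosen by gene symbol and make up 6 of the 23356 genes in the deposited expression table. RNA-seq was carried out on BMDCs of 4 genotypes on the C57BL/6 background, wild-type (WT), *Tmem173*-/-, *Irf1*-/- and *Irf3/7*-/-, which had grown for 6 days with GM-CSF (10 ng/ml) and IL-4 (10 ng/ml). *Tmem173* encodes STING, the receptor for the bacterial dinucleotide c-di-GMP, and the *Irf* genes encode interferon regulatory factors, transcription factors that act downstream of innate sensors. The cells of each genotype were left untreated or received c-di-GMP for 18 h, at a dose given in the sample labels as 25 µg/ml, and the labels list 2 samples for each of the 8 conditions. The deletions were carried by the donor mice, so any other cell type in a culture carried them too, and the *Irf3/7*-/- mice were double knockouts. The authors combined the samples of a condition, so each gene has 1 FPKM value (fragments scaled to transcript length and library size) per condition with the bounds of an interval, and no spread between replicates can be given.

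Proteins of the p200 family join a pyrin domain, through which proteins of innate immunity bind each other, to HIN domains that bind double-stranded DNA. AIM2 recruits the adaptor ASC and caspase-1 when DNA reaches the cytosol, and the complex matures IL-1β and IL-18 and opens gasdermin D pores. The other mouse proteins of the family are known as interferon-inducible nuclear and cytosolic proteins, and p204, the product of *Ifi204*, has been studied as a DNA sensor upstream of STING. Since c-di-GMP binds STING directly, the comparison of the genotypes asks whether the mRNA of these sensors follows STING activation, and whether IRF1 or IRF3 and IRF7 are needed for it.

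All 6 genes lie in a cluster on chromosome 1, which by the table's loci spans 611 kb, from 173420604 to 174031755 (GRCm38). *Aim2* (173420604 to 173466036, plus strand) lies at the proximal end and *Ifi205* (174011998 to 174031755, minus strand) at the distal end. In between lie *Pyhin1* (173630859 to 173647928, plus strand), *Ifi204* (173747294 to 173766919), *Mnda* (173896355 to 173912922) and *Ifi203* (173920403 to 173942492), the last 3 on the minus strand. All 6 are annotated as protein-coding. The table uses older names for some of them: its *Mnda* is *Ifi211* and its *Pyhin1* is *Ifi209* in the RefSeq and GENCODE M21 annotations. The same cluster holds 6 further p200 genes of the table: *BC094916* (*Ifi214*), *Pydc4* (*Ifi213*), *Pydc3* (*Ifi208*), *AI607873* (*Ifi207*), *Mndal* and *Ifi202b*.

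The sequence just upstream of the genes is shown because the responses below separate *Aim2* from its neighbours. RefSeq promoters (GRCm38.p6) were given for 5 of the 6 genes. Each was searched, over the 250 bases before the start site and on both strands, for the core of the interferon-stimulated response element, written as GAAA, any 2 bases, and GAAA again. The core was found for *Ifi203*, *Ifi205* and *Mnda*, and not for *Aim2* or *Pyhin1*, while 3.46% of the 27025 genes with a promoter held it. The core of the gamma-activated site, written as TTC, any 3 bases, and GAA, was found for none of the 5 and for 8.13% of all genes. The 2 cores were searched separately and no match was shared between them. In the sequences that follow, from 5′ to 3′ on the strand of the gene, capitals mark the match to the interferon-stimulated response element core, and bases that GENCODE M21 places in an exon are left out.
Aim2, plus strand, chr1:173420454-173420570: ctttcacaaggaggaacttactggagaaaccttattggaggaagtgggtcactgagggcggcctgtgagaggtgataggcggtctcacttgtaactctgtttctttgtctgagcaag
Pyhin1, plus strand, chr1:173630709-173630858: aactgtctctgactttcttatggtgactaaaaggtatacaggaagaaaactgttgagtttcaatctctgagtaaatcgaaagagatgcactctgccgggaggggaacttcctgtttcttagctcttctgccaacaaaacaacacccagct
Mnda, minus strand, chr1:173913047-173913196: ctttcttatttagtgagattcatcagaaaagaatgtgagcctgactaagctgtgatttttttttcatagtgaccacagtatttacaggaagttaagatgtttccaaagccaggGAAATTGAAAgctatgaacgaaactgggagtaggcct
Ifi203, minus strand, chr1:173942493-173942642: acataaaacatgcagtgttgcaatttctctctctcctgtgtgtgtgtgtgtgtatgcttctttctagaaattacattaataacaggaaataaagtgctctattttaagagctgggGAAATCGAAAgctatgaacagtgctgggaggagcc
Ifi205, minus strand, chr1:174031811-174031905: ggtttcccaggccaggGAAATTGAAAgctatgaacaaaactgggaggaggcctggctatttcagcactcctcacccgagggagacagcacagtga

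The match began 35 bases before the start site for *Ifi203*, 37 bases before it for *Mnda* and 134 bases before it for *Ifi205*. *Ifi203* has a further start site in RefSeq, whose promoter held no match. The 3 windows with a match shared an unbroken stretch of 13 bases, GAAAgctatgaac, which begins inside the match. It was looked for after the windows had been seen, and 7 of all 32851 promoters held it, 6 of them of p200 genes: the 3 above, *Mndal*, *Pydc3* and *Pydc4*. A match is a description of the sequence and does not show that a factor bound there.

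Several values describe the whole series and bear on the results. The distance between an FPKM and the ends of its interval had a median of 25.2% to 25.7% of the FPKM over 4710 genes that reached 10 FPKM throughout. For the 6 p200 genes it ranged from 22.2% to 44.6%, with a median of 24.6%. *Tmem173* was at 8.97 and 7.49 FPKM in untreated and treated *Tmem173*-/- BMDCs against 103 and 118 FPKM in WT BMDCs, and *Irf7* was at 1.07 and 4.97 FPKM in *Irf3/7*-/- BMDCs against 15.2 and 687 FPKM in WT BMDCs. *Irf1* was at 25.9 and 116 FPKM in *Irf1*-/- BMDCs against 149 and 245 FPKM in WT BMDCs, and was called lower in both comparisons. *Irf3* was at 7.74 and 20.2 FPKM in *Irf3/7*-/- BMDCs, where WT BMDCs had 19.9 and 15.8 FPKM. A gene-level FPKM does not show which exons the fragments came from, so the fragments left of *Irf1* and *Irf3* cannot be placed within or outside the deleted parts. All 8 markers of dendritic cells were at or above 1 FPKM in every condition.

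c-di-GMP raised 5 of the 6 p200 genes in WT BMDCs, from 4.63-fold for *Ifi203* to 79.9-fold for *Ifi205*, and *Aim2* was not called. A call needed a difference of more than 2-fold after 0.1 FPKM was added to each value, together with intervals that did not overlap. Genes were tested if they had at least 1 FPKM in 1 of the conditions compared and a status of OK in both. By this rule, 10.5% of the 11201 genes tested were called higher in WT BMDCs. The median log2 change was 3.62 for the 6 genes and 0.003 for all genes tested. In bulk samples, fewer cells of a type and less RNA per cell cannot be told apart, here or in the comparisons that follow.

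*Ifi205*, a pyrin and HIN domain gene, went from 2.37 FPKM (authors' interval, 1.63 to 3.11) in untreated WT BMDCs to 197 FPKM (151 to 243) after c-di-GMP. Its log2 change was 6.32, and the ends of the intervals allowed 5.56 to 7.14. From the lowest of the 6 before treatment it became the highest, with an interval that overlapped that of *Ifi204*. *Ifi204*, which encodes p204, had 14.8 FPKM (11.4 to 18.3) without and 187 FPKM (142 to 232) with c-di-GMP, and its log2 change was 3.65 (2.95 to 4.33). *Pyhin1*, which like *Aim2* lies on the plus strand, had 4.94 FPKM (3.73 to 6.15) without and 121 FPKM (90.4 to 151) with c-di-GMP, with a log2 change of 4.58 (3.86 to 5.30). Each of these 3 genes was above 100 FPKM after treatment, well past the upper bound it had before. *Mnda* had 6.39 FPKM (4.74 to 8.04) before and 77.9 FPKM (59.8 to 95.9) after treatment, with a log2 change of 3.59 (2.88 to 4.31). *Ifi203* had 19.6 FPKM (14.4 to 24.8) before and 91.0 FPKM (70.2 to 112) after treatment, with a log2 change of 2.21 (1.499 to 2.94). *Ifi203* therefore had the smallest change of the 5 and the highest level of the 6 before treatment.

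*Aim2*, the inflammasome sensor, had 17.5 FPKM (13.6 to 21.5) in untreated and 24.9 FPKM (19.2 to 30.5) in treated WT BMDCs. Its log2 change was 0.50, with -0.16 to 1.16 allowed by the intervals, which overlapped. Across all 8 conditions *Aim2* stayed between 14.7 FPKM in untreated *Irf1*-/- and 24.9 FPKM in treated WT BMDCs, and it was called in none of the 11 comparisons made. In the order of its levels, each condition overlapped the next lower condition. The 6 summed to 65.7 FPKM in untreated WT BMDCs, of which *Aim2* made up 26.7%, and to 698 FPKM after c-di-GMP, of which it made up 3.56%. FPKM is scaled by transcript length, so the genes can be set beside each other on it.

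**Figure D1:**
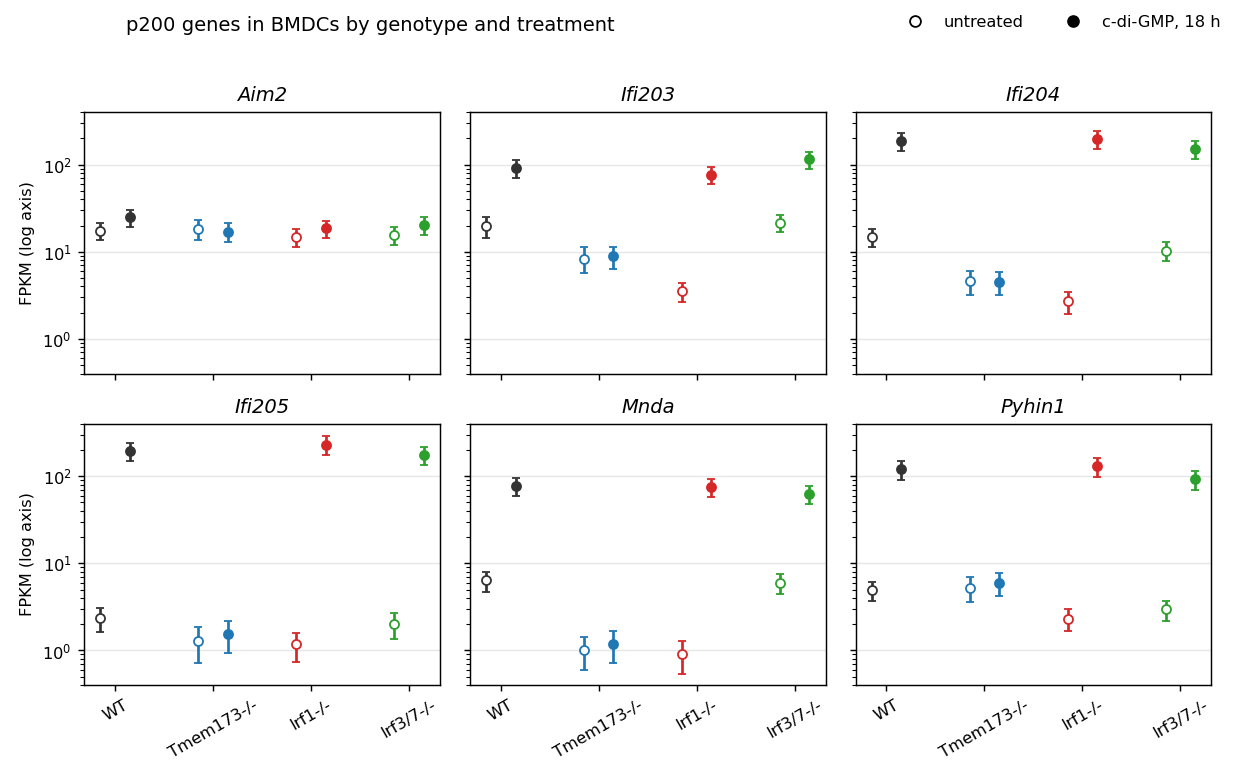
FPKM on a log axis of the 6 p200 genes in 4 genotypes, open circles for untreated BMDCs and filled circles for BMDCs after c-di-GMP for 18 h, with 1 combined value per condition and bars for the authors' interval. All panels but that of *Aim2* show filled circles between 62.7 and 232 FPKM in the WT, *Irf1*-/- and *Irf3/7*-/- cells, and at or below 8.87 FPKM in the *Tmem173*-/- cells.

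In *Tmem173*-/- BMDCs, which lack STING, none of the 6 p200 genes was called after c-di-GMP, and 0.0552% of the 10867 genes tested were called in either direction. *Ifi205* was at 1.27 FPKM (0.715 to 1.85) without and 1.55 FPKM (0.937 to 2.17) with c-di-GMP. *Ifi204* was at 4.58 FPKM (3.22 to 5.94) and 4.51 FPKM (3.17 to 5.84). The intervals overlapped for both genes and for the other 4, and the log2 changes of the 6 lay between -0.10 for *Aim2* and 0.26 for *Ifi205*. *Mnda* was at 1.01 and 1.20 FPKM, *Pyhin1* at 5.27 and 5.94 FPKM, *Ifi203* at 8.34 and 8.87 FPKM, and *Aim2* at 18.3 and 17.1 FPKM. *Aim2* was thus the highest of the 6 in both *Tmem173*-/- conditions, with 47.1% and 43.6% of their sum.

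Compared with treated WT BMDCs, treated *Tmem173*-/- BMDCs had lower levels of the same 5 genes, where 13.5% of the 11318 genes tested were lower. The log2 differences were -6.90 for *Ifi205*, -5.91 for *Mnda*, -5.34 for *Ifi204*, -4.32 for *Pyhin1* and -3.34 for *Ifi203*. On the FPKM scale with 0.1 added, *Ifi205* was 119-fold and *Ifi203* 10.2-fold higher in WT. *Aim2* had a log2 difference of -0.54 (-1.23 to 0.14), and its intervals overlapped.

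In *Irf1*-/- BMDCs, c-di-GMP again raised *Ifi203*, *Ifi204*, *Ifi205*, *Mnda* and *Pyhin1*, where 9.67% of the 11164 genes tested were higher. *Ifi204* had 2.70 FPKM (1.92 to 3.48) before and 196 FPKM (150 to 243) after treatment, with a log2 change of 6.13 (5.39 to 6.91). *Mnda* had 0.902 FPKM (0.530 to 1.28) before and 75.8 FPKM (58.1 to 93.3) after treatment, with a log2 change of 6.24 (5.40 to 7.21). *Mnda* passed the minimum of 1 FPKM through the treated condition only, so it could not have been called lower here. *Ifi203* had 3.54 FPKM (2.64 to 4.43) before and 76.2 FPKM (59.2 to 93.1) after treatment, with a log2 change of 4.39 (3.71 to 5.09). For these 3 genes the log2 change was larger in *Irf1*-/- than in WT BMDCs, by 2.49, 2.66 and 2.18, and the ranges that the intervals allowed in the 2 genotypes did not overlap. *Ifi205* went from 1.17 to 232 FPKM and *Pyhin1* from 2.31 to 131 FPKM, with log2 changes of 7.51 (6.68 to 8.42) and 5.77 (5.02 to 6.53). Their changes exceeded those in WT BMDCs by 1.19 each, and the ranges overlapped. *Aim2* was at 14.7 and 18.6 FPKM, a log2 change of 0.33, and was not called.

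In *Irf3/7*-/- BMDCs the same 5 genes were called higher, where 10.2% of the 11283 genes tested were higher, and their log2 changes differed from those in WT BMDCs by between -0.21 for *Mnda* and 0.34 for *Pyhin1*. *Ifi205* was at 2.003 FPKM (1.36 to 2.66) without c-di-GMP and reached 174 FPKM (134 to 214), for a log2 change of 6.37 (5.60 to 7.20). *Ifi203* had 21.5 FPKM (16.7 to 26.4) before and 115 FPKM (89.1 to 141) after treatment, with a log2 change of 2.42 (1.75 to 3.07). The treated *Irf3/7*-/- level of *Ifi203* was the highest of its 8 conditions, with an interval that overlapped the treated WT level. *Ifi204* went from 10.3 to 150 FPKM, *Pyhin1* from 2.95 to 92.2 FPKM and *Mnda* from 5.95 to 62.7 FPKM, with log2 changes of 3.85, 4.92 and 3.38. *Aim2* was at 15.6 and 20.3 FPKM, a log2 change of 0.38, and was not called.

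**Figure D2:**
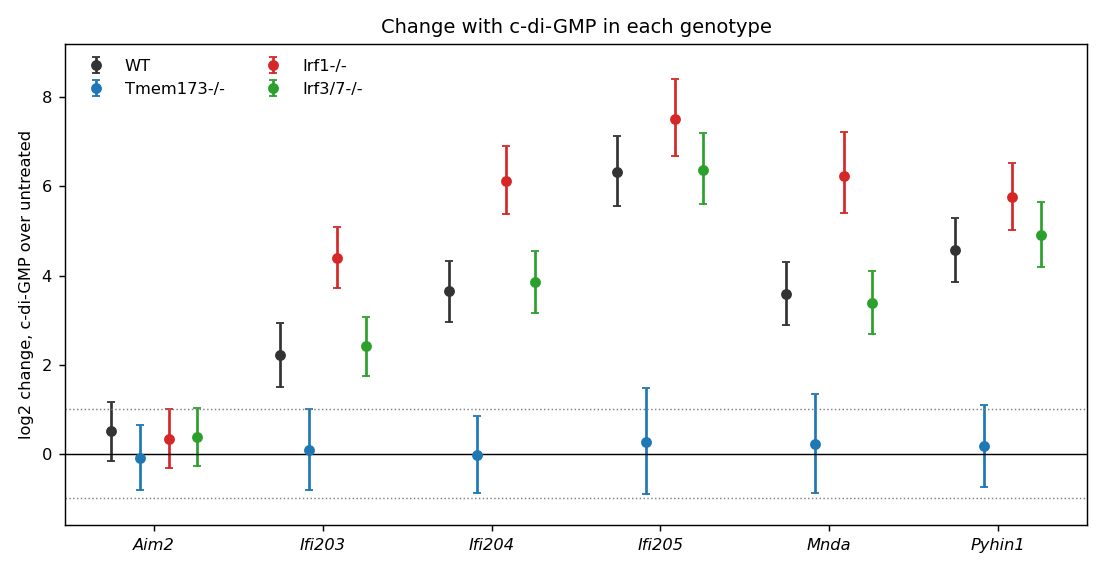
Log2 change of each p200 gene with c-di-GMP over untreated BMDCs, after 0.1 FPKM was added, in 4 genotypes, where points stand for the combined values, bars for the range that the authors' intervals allow and dotted lines for 2-fold. The *Tmem173*-/- points lie between -0.10 and 0.26, and those of *Irf1*-/- lie above those of WT for every gene but *Aim2*.

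After c-di-GMP, none of the 6 genes was called between *Irf1*-/- and WT BMDCs, where 7.56% of the 11079 genes tested were called in either direction. The log2 differences ran from -0.42 for *Aim2* to 0.23 for *Ifi205*. The intervals nevertheless allowed differences of up to 0.94 for *Ifi205* and -1.08 for *Aim2*, so differences somewhat below 2-fold were not resolved. None of the 6 was called between treated *Irf3/7*-/- and treated WT BMDCs either, with 7.3% of 11209 genes called and log2 differences from -0.39 for *Pyhin1* to 0.34 for *Ifi203*. The direct comparison of treated *Irf1*-/- with treated *Irf3/7*-/- BMDCs called none of the 6 and 9.84% of 11235 genes. Its log2 differences ran from -0.60 for *Ifi203* to 0.51 for *Pyhin1*. The comparisons with treated WT BMDCs share that condition and are not independent of each other.

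The untreated levels were compared in the same way. In untreated *Irf1*-/- BMDCs, 4 of the 6 genes were lower than in untreated WT BMDCs, where 3.52% of the 11017 genes tested were lower. *Mnda* had 0.902 against 6.39 FPKM, a log2 difference of -2.70 (-3.69 to -1.82). *Mnda* passed the minimum of 1 FPKM through WT BMDCs only, so it could not have been called higher in this comparison. *Ifi203* had 3.54 against 19.6 FPKM and *Ifi204* had 2.70 against 14.8 FPKM, with log2 differences of -2.43 (-3.18 to -1.68) and -2.42 (-3.18 to -1.69). *Pyhin1*, with 2.31 against 4.94 FPKM, was also called, at a log2 difference of -1.06 (-1.82 to -0.33). For *Ifi205* the intervals did not overlap, but its log2 difference of -0.95 missed the 2-fold threshold. *Aim2* had 14.7 against 17.5 FPKM and overlapping intervals. The lower start of *Mnda*, *Ifi203* and *Ifi204* in *Irf1*-/- BMDCs lies beside treated levels that were not called different from WT, which together make the larger changes given above.

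In untreated *Tmem173*-/- BMDCs, *Mnda*, *Ifi204* and *Ifi203* were lower than in untreated WT BMDCs, 3 of the 6 genes, where 5.95% of the 11101 genes tested were lower. *Mnda* had 1.01 FPKM (0.602 to 1.42), a log2 difference of -2.55 (-3.54 to -1.67). The log2 differences of *Ifi204* and *Ifi203* were -1.68 (-2.47 to -0.93) and -1.22 (-2.11 to -0.36). *Pyhin1* had 5.27 FPKM (3.56 to 7.03) and *Aim2* 18.3 FPKM (13.5 to 23.0), against 4.94 and 17.5 FPKM in WT, with overlapping intervals. *Ifi205* had 1.27 against 2.37 FPKM, also with overlapping intervals. Untreated *Irf3/7*-/- BMDCs differed from untreated WT BMDCs in none of the 6 genes by the call, with 2.04% of 11004 genes called in either direction. The log2 differences there ran from -0.72 for *Pyhin1*, whose intervals overlapped narrowly (2.95 FPKM, 2.17 to 3.74, against 4.94 FPKM, 3.73 to 6.15), to 0.14 for *Ifi203*.

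**Figure D3:**
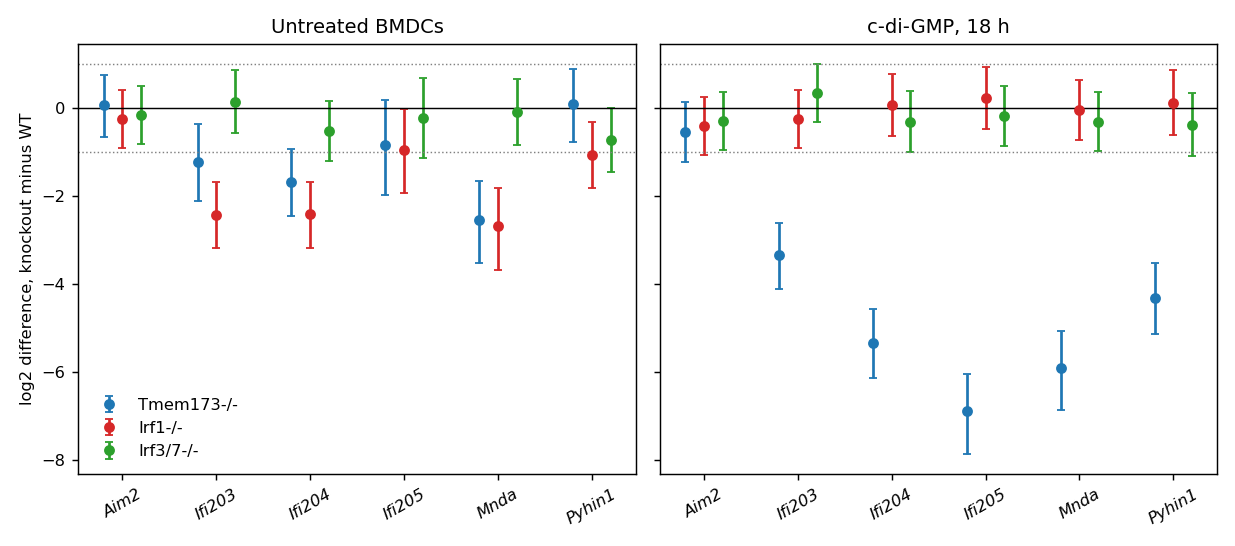
Log2 difference of each p200 gene between a knockout and WT BMDCs, untreated on the left and after c-di-GMP on the right, with bars for the range that the authors' intervals allow and dotted lines for 2-fold. Without treatment *Ifi203*, *Ifi204* and *Mnda* lie below the lower dotted line in *Tmem173*-/- and *Irf1*-/- cells, and after treatment all genes but *Aim2* lie at or below -3.34 in *Tmem173*-/- cells while the other 2 knockouts lie between -0.42 and 0.34.

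Markers of T and NK cells had lower sums in the 2 genotypes with lower untreated p200 levels. The 6 T cell markers in the table summed to 67.2 FPKM in untreated WT, 92.6 FPKM in untreated *Irf3/7*-/-, and 5.76 and 1.32 FPKM in untreated *Irf1*-/- and *Tmem173*-/- BMDCs. The 6 NK cell markers summed to 365, 339, 7.98 and 4.91 FPKM in the same order. *Gzma*, a protease of cytotoxic cells, made up most of the NK sum in untreated WT BMDCs (349 FPKM) and was at 0 in *Tmem173*-/- BMDCs. *Ncr1* was at 0 in untreated *Tmem173*-/- and *Irf1*-/- BMDCs, but only at 0.193 FPKM in untreated WT BMDCs. *Klrd1* of the same list went the other way in untreated *Tmem173*-/- BMDCs, with 4.83 against 2.01 FPKM in WT. It made up most of the NK sum of those *Tmem173*-/- cells. *Ifng*, the cytokine IFN-γ, was at 34.6 FPKM in untreated WT, 44.0 FPKM in untreated *Irf3/7*-/- and 1.26 FPKM in untreated *Irf1*-/- BMDCs, and was listed at 0 in *Tmem173*-/- BMDCs. The part of these cells in the untreated p200 levels was not tested. After c-di-GMP, *Irf1*-/- BMDCs had T and NK marker sums of 9.73 and 9.14 FPKM, against 48.5 and 338 FPKM in WT. The part of these cells in the treated p200 levels was not tested either. The 6 neutrophil markers in the table summed to 19260 and 13913 FPKM in untreated and treated *Tmem173*-/- BMDCs and to between 1364 and 3922 FPKM in the other 6 conditions. *S100a8* and *S100a9* made up most of each sum, and the list did not move as 1. In untreated *Irf1*-/- BMDCs *Mpo* and *Elane* were at 24.7 and 16.4 FPKM, above 3.70 and 2.45 FPKM in untreated WT BMDCs, while the rest of the list was lower. The 6 macrophage markers summed to 157 FPKM in untreated WT, 158 FPKM in *Irf3/7*-/-, 363 FPKM in *Tmem173*-/- and 80.4 FPKM in *Irf1*-/- BMDCs. The complement gene *C1qa* among them was at 12.2 FPKM in untreated WT, 21.3 FPKM in *Tmem173*-/- and 1.17 FPKM in *Irf1*-/- BMDCs. *Csf1r* was at 54.3, 194 and 52.8 FPKM in the same order, so it was nearly level between WT and *Irf1*-/-. *Mertk* alone of the list went the other way in untreated *Tmem173*-/- BMDCs, with 2.83 against 4.89 FPKM in WT. The part of neutrophils and macrophages in the p200 levels was not tested either.

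Among the 6 genes, the order of the levels changed with treatment in the genotypes that responded. In untreated WT BMDCs *Ifi203*, *Aim2* and *Ifi204* led and overlapped each with the next, followed by *Mnda* and *Pyhin1*, which overlapped, and by *Ifi205*. After c-di-GMP the order was *Ifi205*, *Ifi204*, *Pyhin1*, *Ifi203*, *Mnda* and *Aim2*, with overlaps between all neighbours but the last pair. Treated *Irf1*-/- BMDCs had the same order, with *Pyhin1* and *Ifi203* also apart. Treated *Irf3/7*-/- BMDCs had *Ifi203* before *Pyhin1*, which overlapped. Within each gene other than *Aim2*, the 3 treated conditions with STING were the highest 3 of the 8, overlapped among themselves and did not overlap the next lower condition. The pairs without *Aim2* had Pearson correlations of log2(FPKM + 0.1) from 0.900 to 0.991 over the 8 conditions, and the pairs with *Aim2* from 0.723 to 0.820. These are descriptions over 8 conditions that share a genotype or a treatment, and some of the genes share parts of their transcripts, as given next.

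The limits of short reads differ between the 6 genes, since parts of their transcripts are alike. Of the windows of 35 bases, the read length, in the GENCODE M21 transcripts of *Mnda* (*Ifi211*), 77.6% also occurred in another gene, most often in *Ifi205* (48.4%) and *Ifi204* (35.9%). The share was 43.6% for *Pyhin1*, nearly all of it with *Ifi214*, and 30.1% for *Ifi204*. It was 21.4% for *Ifi205*, 19.2% for *Ifi203* and 3.38% for *Aim2*. The GENCODE M21 span of *Mndal* (173849126 to 173942491) also covers that of *Mnda* and nearly all of that of *Ifi203*. The deposited locus of *Mndal*, 173857220 to 173880187, is shorter and overlaps the deposited locus of neither gene. How fragments that match several genes were assigned is not given in the sources used here, so the level of *Mnda* is the least certain of the 6, and its part in the values was not tested.

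Of the other 6 p200 genes in the table, 5 were tested in WT BMDCs and all 5 were higher after c-di-GMP, where 10.5% of all genes tested were higher. Their median log2 change was 4.62. *Pydc4* and *BC094916* passed the minimum of 1 FPKM through the treated condition only, so they could not have been called lower. *Pydc3* went from 1.93 FPKM (1.37 to 2.49) to 59.0 FPKM (44.6 to 73.4), *Pydc4* from 0.459 to 13.7 FPKM and *BC094916* from 0.0515 to 4.96 FPKM, with log2 changes of 4.86, 4.62 and 5.06, of which the last depends on the added 0.1 FPKM. *Mndal* and *AI607873* started higher, at 32.2 and 19.6 FPKM, and reached 119 and 77.3 FPKM, with log2 changes of 1.88 and 1.97. The same 5 rose in *Irf1*-/- BMDCs, where 9.67% of all genes tested were higher. There *Pydc3*, *Pydc4* and *BC094916* passed the minimum through the treated condition only. None of the 2 tested was called in *Tmem173*-/- BMDCs, where 0.0552% of all genes tested were called. In the comparison of untreated cells, *Pydc3*, *AI607873* and *Mndal* were lower in *Irf1*-/- BMDCs (log2 differences of -1.81, -1.74 and -1.85) and *Pydc3* and *AI607873* in *Tmem173*-/- BMDCs (-3.01 and -1.54), of 3 tested each time. Over all genes tested, 3.52% were lower in untreated *Irf1*-/- and 5.95% in untreated *Tmem173*-/- BMDCs. *Pydc3* passed the minimum through WT BMDCs only in both of these comparisons. All 5 held the core of the interferon-stimulated response element in a promoter.

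*Ifi202b*, whose product has HIN domains and no pyrin domain, was below 0.06 FPKM in 7 of the 8 conditions. In treated *Irf3/7*-/- BMDCs it was at 1.10 FPKM (0.653 to 1.57), which was called higher than in the untreated cells and than in treated WT BMDCs (0.0272 FPKM, 0 to 0.121). Its promoter held the core of the gamma-activated site and not that of the interferon-stimulated response element. Of the 11 p200 genes with a promoter, only *Ifi202b* held the former core. Over all genes 8.13% held it, and 1 of 11 is near that share. *Ifi202b* reached the minimum of 1 FPKM through treated *Irf3/7*-/- BMDCs only, so its response was not tested in the other 3 genotypes. The size of its change depends on the added 0.1 FPKM.

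**Figure D4:**
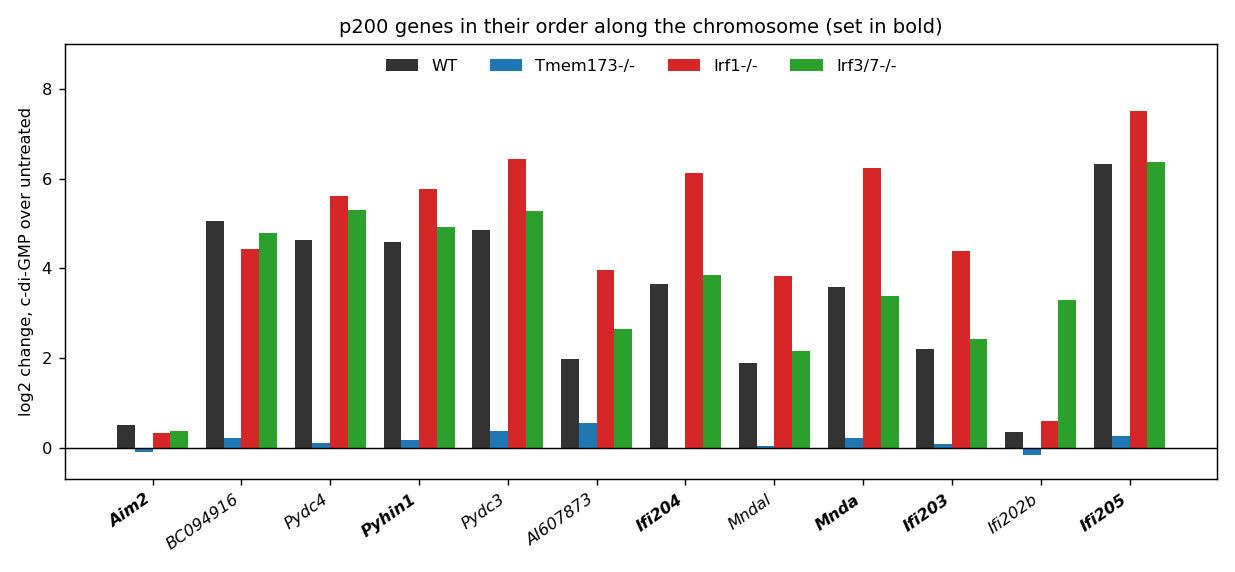
Log2 change with c-di-GMP over untreated BMDCs of the 12 p200 genes, in their order along the chromosome and in 4 genotypes, with the 6 genes of the set in bold. Bars of *Aim2* reach at most 0.50, the bars of *Tmem173*-/- reach at most 0.56, and *Ifi202b*, whose response was tested in *Irf3/7*-/- cells only, shows a bar above 1 there.

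Most genes beside the cluster gave little signal. Of the 16 further genes in the table within 200000 bases of it, 14 stayed at or below 0.614 FPKM in all 8 conditions, olfactory receptor genes for the most part. *Fcer1a*, the IgE receptor chain of mast cells and basophils on the side of *Aim2*, had 2.66 and 3.87 FPKM in WT BMDCs and was not called.

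The AIM2 inflammasome was followed through 14 genes of the table, of which 5 were higher and 2 lower after c-di-GMP in WT BMDCs, where 10.5% of all genes tested were higher and 9.96% lower. *Casp4*, the cytosolic lipopolysaccharide receptor, went from 20.1 to 125 FPKM, *Casp1*, which cleaves pro-IL-1β, from 49.5 to 157 FPKM, and *Il1b* itself from 153.9 to 611 FPKM. *Il18* and *Ninj1*, the membrane rupture protein, also rose, with log2 changes of 1.78 and 1.54. The adaptor *Pycard*, which encodes ASC, was at 117 and 83.1 FPKM and was not called, as with *Aim2* itself. *Gsdmd* was at 62.8 and 125.5 FPKM, at a log2 change of 0.998 that fell just short of the threshold. *Nlrp1b*, a sensor of bacterial proteases, and *Txnip*, a thioredoxin inhibitor, fell, with log2 changes of -2.52 and -1.10. The median log2 change of the 14 genes was 0.89, and 2 of 14 is near the share of lower genes over the whole table. In *Tmem173*-/- BMDCs none of the 14 was called, beside 0.0552% of all genes tested.

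Some genes of this list were called between the IRF knockouts and WT. After c-di-GMP, *Casp1* was at 68.7 FPKM and *Il1b* at 113 FPKM in *Irf1*-/- BMDCs, both called lower than in WT, while *Txnip*, at 93.4 against 43.1 FPKM, was called higher. *Il1b* at 245 FPKM and *Il18* at 2.25 FPKM were called lower in *Irf3/7*-/- BMDCs, against 611 and 4.92 FPKM in WT. *Casp1* and *Casp4* were the 2 of the 14 called lower in untreated *Irf1*-/- BMDCs, at 20.4 and 8.73 FPKM, beside 3.52% of all genes tested. None of the 14 was called in untreated *Tmem173*-/- BMDCs, where 560 of the 11101 genes tested were higher and 661 lower.

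Of the other genes of cytosolic DNA sensing and STING signalling, 22 were tested in WT BMDCs, 4 were higher and 2 lower, and their median log2 change was -0.11. Over all genes tested, 10.5% were higher and 9.96% lower, and the 2 lower genes of 22 are near that share. The 4 were *Trex1*, a DNA exonuclease, from 82.9 to 325 FPKM, *Zbp1*, a sensor of Z-form nucleic acids, from 111 to 264 FPKM, *Tbk1*, the kinase that STING recruits, from 25.8 to 56.9 FPKM, and *Tlr9*, the endosomal DNA receptor, from 5.16 to 11.2 FPKM. *Xrcc6*, which encodes Ku70, fell from 12.3 to 3.82 FPKM and *Hmgb1*, a DNA-binding alarmin, from 134 to 60.1 FPKM. *Mb21d1*, which encodes the DNA sensor cGAS, was at 7.66 and 10.2 FPKM and was not called. The count of 5 of 6 p200 genes called higher thus lies beside 4 of 22 in this list, and the difference between the lists was not tested.

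The interferon signalling list held 16 genes, and 7 of them rose in WT BMDCs, with a median log2 change of 0.92, beside 10.5% of all genes tested. *Ifnb1*, which encodes IFN-β, was listed at 0 in untreated WT BMDCs and was at 2.93 FPKM after c-di-GMP, and *Ifng* went from 34.6 to 299 FPKM. *Isg15*, a ubiquitin-like effector of interferon, went from 57.7 to 2262 FPKM, *Usp18*, its protease, from 42.3 to 404 FPKM, and *Irf7* from 15.2 to 687 FPKM. *Stat2* and *Ifnar2*, a signal transducer and a receptor chain of type I interferon, also rose. *Ifnb1* was at 3.53 FPKM in treated *Irf1*-/- and 22.6 FPKM in treated *Irf3/7*-/- BMDCs, and *Isg15* at 2308 and 1339 FPKM. *Ifng* was at 25.5 FPKM in treated *Irf1*-/- and 1155 FPKM in treated *Irf3/7*-/- BMDCs, and was listed at 0 in treated *Tmem173*-/- BMDCs. The part of *Ifng* in the p200 levels was not tested. In the untreated comparison, 9 of 15 tested genes of this list were lower in *Tmem173*-/- BMDCs, where 5.95% of all genes tested were lower. *Isg15*, at 9.02 against 57.7 FPKM, was among the 9. In untreated *Irf1*-/- BMDCs 5 of 15 were lower, beside 3.52% of all genes tested, and *Isg15*, at 17.0 FPKM, was again among them.

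The genes whose levels followed those of the p200 genes most closely over the 8 conditions were named by Pearson correlation of log2(FPKM + 0.1) among 11805 genes outside the 6. *Ifi203* was most like *Mndal* (r = 0.996), which lies in the same cluster, then *Samhd1* (0.994), a nucleotide hydrolase, and *Irf8* (0.990), a transcription factor of dendritic cells. The GENCODE M21 span of *Mndal* covers nearly all of that of *Ifi203*, while the deposited loci of these genes do not overlap. Of the 35-base windows of *Ifi203*, 4.35% also occurred in *Mndal*. The part of shared fragments in this likeness was not tested. *Ifi204* was most like *Lgals3bp* (0.996), *Slfn8* (0.995) and *Ddx58* (0.995), the last of which encodes the RNA sensor RIG-I. *Mnda* was most like *Pml* (0.997), the organizer of nuclear bodies, *Tapbp* (0.995) of antigen loading and *Sp110* (0.994), another nuclear body gene. The nearest genes of these 3 had, as they did, untreated FPKM values in *Tmem173*-/- and *Irf1*-/- below those in WT BMDCs. They were picked by likeness over the same 8 conditions, so this is not a separate result. *Pml* was at 17.3 FPKM in WT, 5.56 FPKM in *Tmem173*-/- and 6.15 FPKM in *Irf1*-/-.

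*Ifi205* was most like *Slu7* (r = 0.999), a splicing factor, *Mx1* (0.997), an antiviral GTPase, and *Mapkbp1* (0.997). *Slu7* was at 15.5 and 22.5 FPKM in untreated and treated WT BMDCs, and a correlation measures the shape of a profile and not its size. *Pyhin1* was most like *Slc39a2* (0.993), a zinc transporter, *Ints12* (0.992) and *Ppard* (0.992). *Aim2* was most like *Usf1* (0.994), a transcription factor at 21.9 and 36.3 FPKM in untreated and treated WT BMDCs, *Col4a2* (0.992) and *S1pr2* (0.973). The mean profile of the 6 was most like *Epsti1* (0.996), *Aida* (0.994), *Mitd1* (0.993), *Ifitm3* (0.993) and *Siglec1* (0.993), of which *Ifitm3* and *Siglec1* are known interferon-induced genes. No p is given for these correlations, since the 8 conditions share genotypes and treatments.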

How the data were processed

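Expression was measured by RNA-seq of mRNA from BMDCs in 16 labelled samples, 2 per condition, with stranded libraries and 35-base paired reads. The authors ran Cuffdiff, named with version 1.06 in the submitters' processing notes, and deposited 1 FPKM per gene and condition with the bounds of its interval and a status, after combining the samples. For that run the aligner, the annotation and the strand setting are not given in the sources used here, while the methods name a strand-specific setting for a separate quantification in Seqmonk. Those notes name mm9, but the loci of the table overlapped the GRCm38 gene of the same name (GENCODE M21) for 21454 of 21681 genes, so positions are GRCm38. Starts were raised by 1 base to count from 1. The columns of the treated and untreated *Tmem173*-/- BMDCs were told apart by a suffix in their names. A further set of 4 columns for an *Irf7* knockout was not used. The legends of the paper give a higher dose of c-di-GMP than the labels.

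The log2 difference was taken as log2(FPKM + 0.1) of the first condition minus that of the second in 11 comparisons over all genes. A gene was tested with at least 1 FPKM in 1 of the conditions compared and status OK in both, and called when it differed more than 2-fold with intervals apart. With replicates combined there is no test between replicates, and no p-value was computed. The range beside a log2 difference joins the opposite ends of both intervals. FPKM holds no depth, which stayed unknown, and the precision is that of the intervals. A step worth a single read was looked for in the ratios of 1395 low genes and was not seen, with no bin of 0.05 log2 units above 3.08%.

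The genes named are the members of the set, the targeted genes, the 3 genes of most similar profile for each member and the 5 for their mean among genes of at least 1 FPKM in 1 condition, the genes of the lists of p200 relatives, AIM2 inflammasome, DNA sensing and interferon signalling, and the markers of cell types. The genes beside the cluster were added after their values were seen. Values of some genes are not reported here. The members and lists were chosen with earlier results of these data known. *BC094916* was matched to *Ifi214* by identical start and end, other older names by RefSeq synonyms. Protein sequences were not compared here. Alternatives were a pseudocount of 1 or 0.01 FPKM, a minimum of 5 FPKM or none, a threshold of 1.5-fold or 4-fold, median centring, the fold alone, and a z from the intervals with a Benjamini-Hochberg q of 0.05. Scripts ran in python 3.11.15 with pandas 2.3.3, numpy 2.4.6, statsmodels 0.14.6 and matplotlib 3.10.9.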

Additional observations from a re-analysis of the deposited data

How the results depend on the processing

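Over 9 alternatives, the 66 log2 differences of the 6 p200 genes kept their side of the call in 587 of 594 cases, 5 lost it, 2 gained it and none changed direction. Of the counts of called members, that in untreated *Tmem173*-/- against untreated WT BMDCs moved, from 3 to 1 with a threshold of 4-fold, where *Ifi203* and *Ifi204* were no longer called. In untreated *Irf1*-/- against untreated WT BMDCs, *Pyhin1* was not called with a pseudocount of 1 FPKM, a minimum of 5 FPKM or a threshold of 4-fold, and *Ifi205* was called with a pseudocount of 0.01 FPKM or a threshold of 1.5-fold. The 5 calls in each response of WT, *Irf1*-/- and *Irf3/7*-/- BMDCs and the absence of a call for *Aim2* held under all 9. Median centring shifted the log2 differences by at most 0.04. No paired analysis was possible because the deposited columns combine the samples of a condition and carry no replicate number, and for the same reason no sample could be left out. The authors' intervals, about 25% of the FPKM on each side, limit what could be seen, and differences below 2-fold were not resolved for most of the 6 genes.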
